A study of Homo sapiens with 6 samples.

Results

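The genes described here encode the large named families of proteins that carry out or steer pre-mRNA splicing: the SRSF, HNRNP, SF3A and SF3B, SNRP and U2AF genes. Members were every row of the expression table whose symbol starts with HNRNP, SNRP or U2AF, is SRSF followed by a number only, or starts with SF3A or SF3B followed by a number. This gave 58 of 17177 genes, with 12 *SRSF*, 21 *HNRNP*, 9 *SF3*, 12 *SNRP* and 4 *U2AF* genes. NCI-H660, an established cell line from a neuroendocrine prostate cancer (NEPC) and labelled as wild type (WT), was given pyrvinium pamoate (PP) or PBS as the control, and RNA was sequenced on day 3 with 3 libraries per treatment. No concentration of PP for these cells was found in the sources used here, and a single cell line limits the comparison to that line.

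Introns are removed by the spliceosome, which is built from small nuclear RNAs packed with proteins into snRNPs. U1 snRNP binds the start of the intron. The U2AF heterodimer binds its end, and U2 snRNP, with the SF3A and SF3B complexes, takes the branch site. A ring of Sm proteins sits on each of the U1, U2, U4 and U5 RNAs. SR proteins (the SRSF genes) mostly bind exons and favour their inclusion, whereas hnRNPs coat the pre-mRNA and often oppose it. Many of these genes adjust their own mRNA through exons that send it to decay, and several are tied in tumours to the splicing choices of proliferating cells. RNA-binding proteins shape the NEPC phenotype, and the comparison of PP with PBS asks how a drug studied against one of them alters the transcriptome.

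FPKM is a level per length of gene, in fragments relative to the size of the library. Comparing it between genes depends on the gene lengths used, which are not given in the sources used here. *SNRPD1*, for example, had 3808 to 4341 recovered counts per PBS library at a mean FPKM of 27.9, and *SNRPD2* had 2863 to 3149 at 112. Recovered counts came to between 29064154 and 32481049 per library, and the highest total was 11.8% above the lowest. Fold changes of PP over PBS were fitted with limma to log2(FPKM + 1) in the 11726 genes whose mean FPKM reached 1, and a gene was called at a Benjamini-Hochberg adjusted p under 0.05, with SE for the standard error of its log2 fold change. The study describes the samples of this comparison as independent, but neither it nor the labels say that they came from separate cultures, so these p-values may measure only technical spread. Neuroendocrine markers of the line were expressed, with *ENO2* at a mean FPKM of 69.5 in PBS libraries, *CHGA* at 43.3, *CHGB* at 34.9 and *SYP* at 30.9. With PP, *CHGA* (log2 fold change -0.78), *CHGB* (-0.32), *SYP* (-0.23) and *ENO2* (-0.15) were called lower, *INSM1* (0.21) was called higher and *NCAM1* (0.00) was not called, and the part of this shift in the results below was not tested. The 5 markers of other cell types summed to 3.93 to 4.37 and to 4.40 to 4.70 FPKM in PBS and PP libraries, and *PTPRC*, *PECAM1* and *ALB* were at or near 0. Of the fibroblast collagens, *COL1A1* was called higher, at a mean FPKM of 3.30 with PBS and 4.16 with PP (log2 fold change 0.26, adjusted p = 0.002 from limma), while *COL1A2*, below the filter, had a mean of 0.769 with PBS and 0.417 with PP and libraries that did not overlap. Their part in the results below was not tested. PP changed much of this transcriptome: 38.1% of tested genes were called higher and 34.4% lower, which is 72.5% in either direction, with a median log2 fold change of 0.02 over all of them.

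Of the 58 splicing genes, 56 were tested, and 14 were called higher, 27 lower and 15 not called. The 41 called genes are 73.2% of those tested, close to the 72.5% of all genes. The median log2 fold change of the members was -0.08, and the difference of their balance of directions from that of all genes was not tested. Changes were modest. At a log2 fold change of at least 0.5 in size, 3 members were higher and 4 were lower, where this rule called 11.3% of all tested genes higher and 12.5% lower. None passed the cutoff of the study's methods, read here as an unadjusted P under 0.001 and a log2 fold change beyond 1 either way, which 2.24% of all genes passed upwards, 2.93% downwards and 5.18% in all. The 3 PP libraries lay entirely above the 3 PBS libraries in 14 tested members and entirely below in 28, against 39.5% and 35.5% of all tested genes and 75% in either direction. In RNA from whole cultures, fewer cells expressing a gene and less RNA per cell cannot be told apart.

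**Figure D1:**
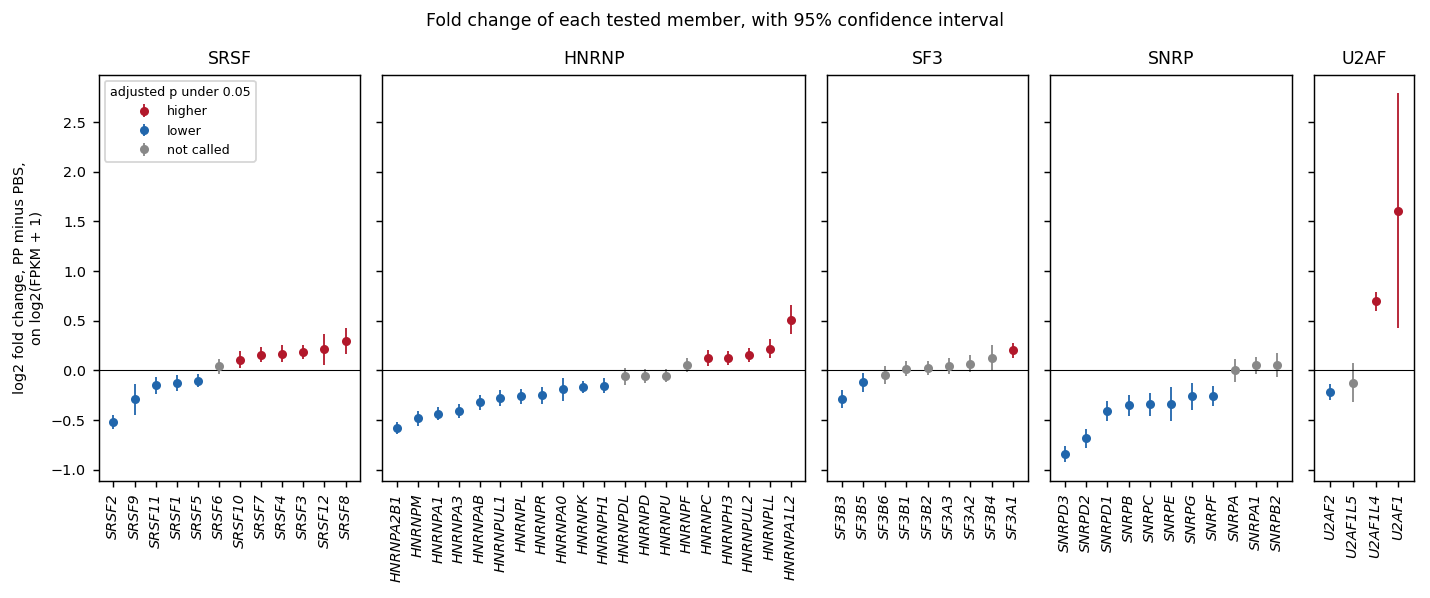
Log2 fold change of the 56 tested members on the log2(FPKM + 1) scale (y axis, PP minus PBS) by gene and family (x axis), with points for the limma estimate, bars for its 95% confidence interval and colours for the call. Most SNRP and HNRNP points lie below 0, SRSF points lie on both sides, most SF3 points are near 0, and the interval of *U2AF1* is far wider than any other.

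Over all tested genes, 38.1% were called higher and 34.4% lower, which is 72.5% in either direction. The share called in either direction was 72.7% in SNRP, 80% in HNRNP, 91.7% in SRSF, 33.3% in SF3 and 75% in U2AF. No difference from the share of all genes was tested. By family, the SNRP genes had 0 members called higher and 8 of 11 lower, with a median log2 fold change of -0.34. HNRNP had 5 higher and 11 lower of 20, with a median of -0.16. SRSF was divided, with 6 higher and 5 lower of 12 and a median of 0.08. In SF3 only 1 of 9 was higher and 2 were lower, with a median of 0.02, and the 4 U2AF genes had 2 higher and 1 lower, with a median of 0.29. Summed over its members, the FPKM of the SNRP family ran from 891 to 912 in PBS libraries and from 704 to 723 in PP libraries. The HNRNP sum ran from 2961 to 3002 and from 2552 to 2584, and the SRSF sum from 997 to 1006 and from 934 to 939. In these families the treatments did not overlap. The summed FPKM of all genes also moved, by -3.48%, against -20.6% for SNRP, -13.9% for HNRNP and -6.56% for SRSF. For SF3 the sums overlapped, at 765 to 789 with PBS and 775 to 803 with PP. The U2AF sum was higher without overlap, at 147 to 163 with PBS and 179 to 188 with PP, a change of 19.8%, and includes the uncertain *U2AF1*.

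**Figure D2:**
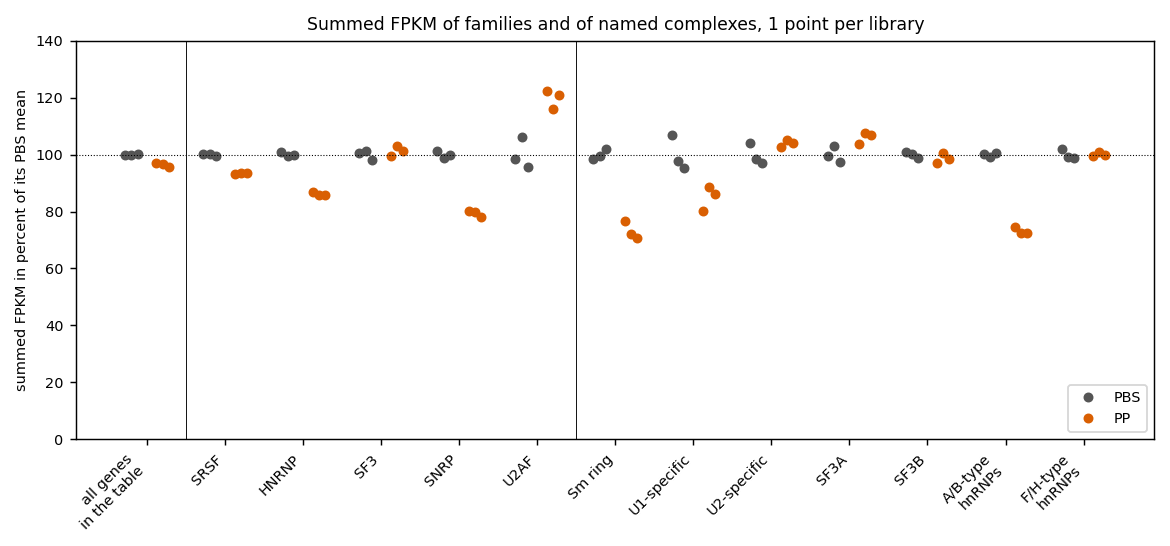
Summed FPKM of each family and of named complexes (x axis), in percent of the mean of the 3 PBS libraries (y axis, from 0), with 1 point per library. The Sm ring and A/B-type hnRNP sums lie lowest with PP, at a change of -26.9% for each, and those of SF3B and of the F/H-type hnRNPs changed by -1.34% and 0.169%.

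Transcripts of all 7 genes of the Sm ring were lower. *SNRPB*, *SNRPD1*, *SNRPD2*, *SNRPD3*, *SNRPE*, *SNRPF* and *SNRPG* encode the 7 subunits that close around the small nuclear RNA, and all 7 were called lower with PP, with the PP libraries below the PBS libraries in each, where 34.4% of all tested genes were called lower and 35.5% had PP libraries entirely below. The median of the 7 was -0.35. Their summed FPKM was 562, 569 and 584 in PBS replicates 1, 2 and 3 and 439, 411 and 404 in PP replicates 1, 2 and 3. These groupings by complex, and the pairs of genes and copies below, were drawn up after the values were seen and describe them only.

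*SNRPD3* had the lowest log2 fold change of the 56 tested genes. Its FPKM was 66.0, 63.3 and 61.6 with PBS and 35.1, 34.9 and 35.2 with PP. The PP libraries were nearly equal, and the mean FPKM changed by -44.8%. The gene lies on chromosome 22, from 24555650 to 24574971 of GRCh38.p14. The log2 fold change was -0.84 (limma, SE 0.04, adjusted p = 2.01e-08). *SNRPD2* (chromosome 19, 45687454 to 45692316), whose product sits next to SNRPD1 in the ring, followed, with an FPKM of 110, 111 and 114 with PBS and 72.7, 69.4 and 65.4 with PP. Its log2 fold change was -0.68 (limma, SE 0.04, adjusted p = 2.11e-07).

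The other ring genes fell less, with log2 fold changes of -0.41 for *SNRPD1*, -0.35 for *SNRPB*, -0.34 for *SNRPE*, -0.26 for *SNRPG* and -0.25 for *SNRPF*. *SNRPB*, the ring gene with the highest level and one that controls itself through an alternative exon, had an FPKM of 253, 268 and 270 with PBS and 222, 203 and 195 with PP. In *SNRPE*, the ring gene with the fewest counts (853 to 964 per PBS library and 615 to 792 per PP library), the margin between treatments was narrow. Its lowest PBS library had an FPKM of 16.4 and its highest PP library 15.3, and its adjusted p from limma was 0.00238.

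Of the 4 SNRP genes that belong to a single particle, 1 was called. In the U1-specific pair, *SNRPC*, which steadies the contact with the start of the intron, was lower: its FPKM was 182, 167 and 161 with PBS and 126, 138 and 138 with PP, and its log2 fold change was -0.34 (limma, SE 0.05, adjusted p = 0.000161). *SNRPA*, which binds a stem-loop of U1 RNA, had a log2 fold change of 0.00 with a 95% confidence interval from -0.12 to 0.12. Its libraries overlapped, at an FPKM of 66.8 to 74.2 with PBS and 66.4 to 74.1 with PP. Neither U2-specific gene passed the test. *SNRPA1* had a log2 fold change of 0.05 (95% confidence interval -0.03 to 0.14) and *SNRPB2* one of 0.06 (-0.06 to 0.18), and each interval lies above the value of every ring gene. These 4 genes are not all the particle-specific ones. The U1-specific gene *SNRNP70*, outside the family by its symbol, was called lower, at -0.33. Of the 7 genes with SNRNP names, counted below, 4 were called lower and 3 higher, where 34.4% and 38.1% of all tested genes were. The difference between ring and particle-specific genes was not itself tested.

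**Figure D3:**
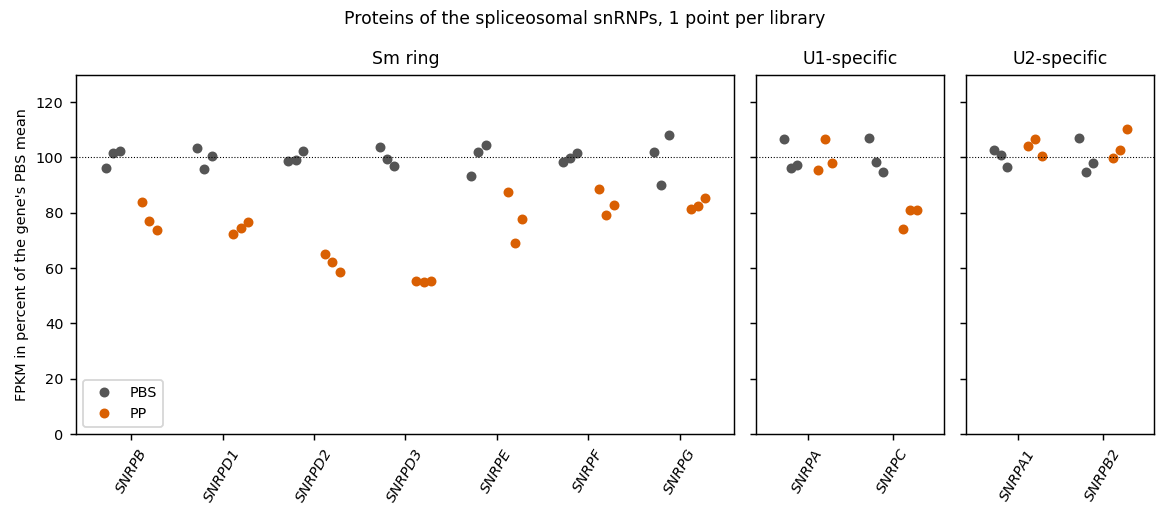
FPKM of each tested SNRP gene in each library (y axis, in percent of the gene's PBS mean, from 0) for ring, U1-specific and U2-specific genes (x axis). All PP points of the 7 ring genes and of *SNRPC* lie below the PBS points of the same gene, and PP and PBS points overlap in *SNRPA*, *SNRPA1* and *SNRPB2*.

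The remaining SNRP gene, *SNRPN*, encodes a neuronal counterpart of SNRPB from an imprinted region of chromosome 15. It was below the filter, at an FPKM of 0.562, 0.664 and 0.661 with PBS and 1.03, 1.08 and 1.02 with PP, on 59 to 70 counts per PBS library and 107 to 113 per PP library. The PP libraries were all higher. In a fit with no filter its log2 fold change was 0.33 (adjusted p = 0.00058 from limma), opposite in sign to that of *SNRPB*. As a share of *SNRPB*, the level of *SNRPN* was between 0.222% and 0.248% with PBS and between 0.464% and 0.533% with PP. *SNRPN* shares 10.02% of its exon bases with *SNURF*, which is made from the same transcript and is listed at 0 in all 6 libraries, so the value of *SNRPN* is uncertain.

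Promoters of the SNRP genes were inspected for sequence shared by ring and particle-specific genes. RefSeq promoters (250 bases before to 50 after the start, GRCh38.p14) were matched by symbol for 53 of the 58 members. *SRSF2*, *HNRNPA1*, *SF3B3*, *SNRPD1* and *U2AF1L5* had no match and are in none of the motif counts. The core CCGGAA of the sites bound by ETS factors, searched on both strands and added after the sequences were seen, was in 21 of these 53, which is 39.6%, against 31.0% of the 9557 promoters of tested genes and 17.6% of all 27305. It was in 7 of 11 SNRP promoters, 6 of 8 SF3, 5 of 20 HNRNP, 2 of 11 SRSF and 1 of 3 U2AF. A stretch of 60 bases is shown for 3 genes that were lower and 2 that were not called, to let both be compared, with the motif or its reverse complement in capitals wherever it occurs in the stretch. They lie at chr19:45692346-45692405 (*SNRPD2*, minus strand), chr20:2470798-2470857 (*SNRPB*, minus), chr6:34757445-34757504 (*SNRPC*, plus), chr15:101295328-101295387 (*SNRPA1*, minus) and chr20:16729966-16730025 (*SNRPB2*, plus).
SNRPD2: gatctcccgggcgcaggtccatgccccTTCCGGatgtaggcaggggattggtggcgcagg
SNRPB: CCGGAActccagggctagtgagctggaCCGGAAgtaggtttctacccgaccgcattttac
SNRPC: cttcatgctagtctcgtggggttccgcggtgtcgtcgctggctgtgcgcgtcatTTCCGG
SNRPA1: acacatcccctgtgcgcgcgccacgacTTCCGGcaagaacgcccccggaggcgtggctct
SNRPB2: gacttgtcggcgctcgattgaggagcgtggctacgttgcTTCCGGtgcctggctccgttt

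The motif was present in genes of both kinds: of the 7 SNRP genes that hold it, *SNRPB*, *SNRPC*, *SNRPD2*, *SNRPE* and *SNRPG* were called lower, and *SNRPA1* and *SNRPB2* were not called. A match describes these letters and does not show that a factor binds there.

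Among the hnRNPs, 5 genes of the A/B type were lower, and *HNRNPA1L2*, a copy of *HNRNPA1* described below, was higher and is left out of their sum. *HNRNPA0*, *HNRNPA1*, *HNRNPA2B1*, *HNRNPA3* and *HNRNPAB* encode abundant proteins with a pair of RNA recognition motifs and a glycine-rich tail. The group was drawn by name: *HNRNPD* (-0.05) and *HNRNPDL* (-0.06), relatives of *HNRNPAB* with a similar layout, are not in it and were not called. All 5 genes of the group were called lower, where 34.4% of all tested genes were, with a median log2 fold change of -0.41. Their summed FPKM was 1152, 1143 and 1158 in PBS libraries against 856, 834 and 833 in PP libraries. *HNRNPA2B1* (chromosome 7, 26189927 to 26200746) had the lowest log2 fold change of the tested HNRNP genes, with an FPKM of 414, 411 and 412 with PBS and 279, 276 and 272 with PP. Its log2 fold change was -0.58 (limma, SE 0.03, adjusted p = 3.27e-08). *HNRNPA1*, the best studied splicing repressor of the family, had the highest mean FPKM of the family over all 6 libraries, at 400.1, 389 and 399 with PBS and 298, 294 and 287 with PP, a log2 fold change of -0.44 (limma, SE 0.03, adjusted p = 4.41e-07). In both genes the 3 libraries of a treatment lay within a few percent of each other. *HNRNPA3* followed at -0.41, *HNRNPAB* at -0.32 and *HNRNPA0* at -0.19.

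*HNRNPM*, a repressor and activator tied to epithelial and mesenchymal isoforms, had the next lowest log2 fold change of the family, with an FPKM of 166, 166 and 171 with PBS and 124, 118 and 117 with PP, a log2 fold change of -0.48 (limma, SE 0.03, adjusted p = 5.67e-07). Smaller decreases were called in *HNRNPUL1* (-0.27), *HNRNPL*, which binds CA repeats (-0.26), *HNRNPR* (-0.25), *HNRNPK*, which binds C-rich RNA (-0.16) and *HNRNPH1* (-0.15). *HNRNPL* shares 22.9% of its exon bases with another annotated gene that is not among the deposited genes. The part of this overlap in its value was not tested. In *HNRNPD*, *HNRNPDL*, *HNRNPU* and *HNRNPF* the log2 fold change lay between -0.06 and 0.06 and did not pass the test.

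The 5 HNRNP genes called higher were *HNRNPA1L2*, *HNRNPLL*, *HNRNPUL2*, *HNRNPH3* and *HNRNPC*. *HNRNPLL*, a relative of *HNRNPL* that lymphocytes use to switch isoforms of a surface phosphatase, had an FPKM of 10.5, 10.7 and 10.8 with PBS and 12.8, 12.5 and 12.6 with PP (log2 fold change 0.22, limma SE 0.04, adjusted p = 0.000958). Its relative *HNRNPL* was called lower. *HNRNPUL2* had a log2 fold change of 0.16, *HNRNPH3* of 0.13 and *HNRNPC*, which binds nascent RNA at U-rich tracts, of 0.13. Of the F/H type, which binds runs of G, *HNRNPH1* was lower, *HNRNPH3* was higher and *HNRNPF* was not called, and their summed FPKM overlapped between treatments, at 541 to 559 with PBS and 546 to 553 with PP.

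*HNRNPA1L2* is a retrotransposed copy of *HNRNPA1* on another chromosome, and the copies moved in opposite directions. Its FPKM was 7.77, 9.03 and 8.02 with PBS and 12.7, 11.3 and 12.7 with PP, on 553 to 609 counts per PBS library and 785 to 957 per PP library. The PP libraries were all higher, with a log2 fold change of 0.51 (limma, SE 0.07, adjusted p = 5.13e-05). As a share of *HNRNPA1*, its level was between 1.94% and 2.32% with PBS and between 3.85% and 4.43% with PP. The coding sequences are identical at 945 of 960 aligned bases (98.4%), and 11.4% of the 100-base stretches of the copy occur unchanged in *HNRNPA1*. How the counting treated reads that match both genes is not given in the sources used here, so the value of *HNRNPA1L2* is uncertain, and the part of shared reads in it was not tested.

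*HNRNPH2*, the X-linked relative of *HNRNPH1*, was below the filter, with an FPKM of 0.0707, 0.0896 and 0.266 with PBS and 0.057, 0.0145 and 0.0668 with PP, from 1 to 19 counts per library. It shares exon bases with the read-through gene *RPL36A-HNRNPH2* (15.8% of its exon bases), and *RPL36A*, the ribosomal protein gene at the other end of that read-through, was also listed low, at an FPKM of 0.0421 to 1.02 over the 6 libraries. The part of the overlap in these values was not tested, and no direction is read for *HNRNPH2*.

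The E-box CACGTG, the site of the MYC family and related factors, was searched on both strands because the study works on such a factor. It was in 8 of the 53 matched promoters (15.1%), against 10.4% of promoters of tested genes and 7.43% of all promoters. Of these 8, *HNRNPA3*, *HNRNPD*, *HNRNPDL*, *HNRNPH2*, *HNRNPH3*, *HNRNPM* and *HNRNPUL1* were HNRNP genes, of 20 with a promoter, and *SF3B1* was the other. Stretches are shown for 2 genes that were lower and 1 that was higher, with the E-box in capitals, at chr19:8444906-8444965 (*HNRNPM*), chr2:177212696-177212755 (*HNRNPA3*) and chr10:68331616-68331675 (*HNRNPH3*), all on the plus strand of GRCh38.p14.
HNRNPM: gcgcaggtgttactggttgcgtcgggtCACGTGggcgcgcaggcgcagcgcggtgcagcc
HNRNPA3: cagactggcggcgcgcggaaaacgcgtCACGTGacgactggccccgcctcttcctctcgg
HNRNPH3: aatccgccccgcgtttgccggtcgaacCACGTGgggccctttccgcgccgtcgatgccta

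Of the 7 HNRNP genes with an E-box, *HNRNPA3*, *HNRNPM* and *HNRNPUL1* were called lower, *HNRNPH3* higher, *HNRNPD* and *HNRNPDL* were not called, and *HNRNPH2* was not tested. The composite site TGATGNAA, bound by C/EBP and ATF factors, was in 0 of the 53 promoters and in 1.56% of those of tested genes.

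In the SRSF family, genes moved both ways, with log2 fold changes from -0.52 (*SRSF2*) to 0.30 (*SRSF8*). *SRSF2* (chromosome 17, 76734115 to 76737411), which binds exonic enhancers and also acts in the release of paused transcription, had an FPKM of 193, 196 and 189.6 with PBS and 130.05, 138 and 135 with PP. All PP libraries were lower, and the log2 fold change was -0.52 (limma, SE 0.03, adjusted p = 2.96e-07). *SRSF9* was lower as well, at 99.8, 110 and 110 with PBS and 97.6, 84.9 and 78.9 with PP, a log2 fold change of -0.29 (limma, SE 0.07, adjusted p = 0.00357). The highest PP and the lowest PBS library of *SRSF9* were close to each other. *SRSF11* (-0.15), *SRSF1*, the founding member and a known oncoprotein (-0.13), and *SRSF5* (-0.10), the SRSF gene with the highest level, were called lower by smaller amounts.

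*SRSF8*, *SRSF12*, *SRSF3*, *SRSF4*, *SRSF7* and *SRSF10* were called higher. *SRSF3*, the smallest SR protein, which also escorts mRNA out of the nucleus, had an FPKM of 73.7, 72.4 and 73.7 with PBS and 82.8, 83.1 and 84.6 with PP, a log2 fold change of 0.19 (limma, SE 0.03, adjusted p = 0.000341). *SRSF4* was at 0.17 and *SRSF7*, a close relative of *SRSF3* that also takes part in export, at 0.16. *SRSF10*, an SR protein that turns repressor when dephosphorylated, had a log2 fold change of 0.11 (adjusted p = 0.027 from limma), and its call was lost with the replicate number as a block (adjusted p = 0.0695), with median-ratio scaling (0.0504) and without PBS replicate 2 (0.0726), PBS replicate 3 (0.0759) or PP replicate 3 (0.0807). *SRSF12*, a low gene with an FPKM of 2.87 to 3.26 with PBS and 3.53 to 4.16 with PP from 366 to 513 counts, had a log2 fold change of 0.21 (adjusted p = 0.0212 from limma), which was not called without a filter (0.0508) or without PBS replicate 3 (0.0816) or PP replicate 2 (0.0875). *SRSF6* was not called, at 0.04 with a 95% confidence interval from -0.03 to 0.12. It shares 14.4% of its exon bases with another annotated gene, and the part of this overlap was not tested.

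*SRSF8*, a retrotransposed relative of *SRSF2*, had the highest log2 fold change of the family, 0.30 (limma, SE 0.06, adjusted p = 0.000897), whereas *SRSF2* had the lowest. Its FPKM was 9.61, 9.87 and 11.2 with PBS and 12.9, 12.6 and 12.9 with PP, on 1246 to 1507 counts per PBS library and 1641 to 1819 per PP library. As a share of *SRSF2* its level was between 4.97% and 5.91% with PBS and between 9.14% and 9.88% with PP. The aligned coding bases of this pair are 84.7% identical and share none of the 100-base stretches.

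The SF3 genes, whose products hold U2 snRNP on the branch site, mostly did not pass the test. *SF3A1* was called higher, with an FPKM of 43.0, 42.7 and 42.4 with PBS and 48.5, 49.5 and 50.1 with PP and a log2 fold change of 0.20 (limma, SE 0.03, adjusted p = 0.000298). *SF3B3*, which shares its fold with the DNA repair protein DDB1 and belongs also to histone acetyltransferase complexes, was lower, at 18.9, 19.6 and 19.1 with PBS and 16.0, 15.4 and 15.4 with PP, a log2 fold change of -0.28 (limma, SE 0.04, adjusted p = 0.000112). In both genes the treatments did not overlap. *SF3B5* was also called lower, at -0.12 (adjusted p = 0.0232 from limma), but its libraries overlapped, and the call was lost without a filter (0.0515) and without PBS replicate 1 (0.0502), PBS replicate 2 (0.103), PP replicate 2 (0.0821) or PP replicate 3 (0.0714).

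*SF3B1*, which clamps the branch site and is the splicing factor most often mutated in some leukaemias, had an FPKM of 65.3, 64.1 and 67.8 with PBS and 65.7, 66.9 and 66.9 with PP. Its log2 fold change was 0.02, with a 95% confidence interval from -0.06 to 0.09. The values were 0.02 for *SF3B2*, 0.04 for *SF3A3*, 0.07 for *SF3A2*, 0.12 for *SF3B4* and -0.05 for *SF3B6*, the subunit that touches the branch adenosine. None of these passed the test. *SF3A2* passed without PBS replicate 2 (adjusted p = 0.0375), and *SF3B4* passed with limma-voom on counts (0.0322) and without PBS replicate 1 (0.0102) or PP replicate 1 (0.0295).

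Among the tested members, the largest rise without overlap was in *U2AF1L4*, and the least stable value was that of *U2AF1*. *U2AF2*, the large subunit that reads the polypyrimidine tract, was called lower, with an FPKM of 96.1, 93.2 and 92.3 with PBS and 83.1, 80.8 and 77.8 with PP and a log2 fold change of -0.22 (limma, SE 0.04, adjusted p = 0.000314). *U2AF1L4* (chromosome 19, 35742464 to 35745418), a shorter relative of the small subunit, rose: its FPKM was 49.1, 49.2 and 47.3 with PBS and 76.3, 83.9 and 77.8 with PP, on 1194 to 1258 counts per PBS library and 1941 to 2110 per PP library. The log2 fold change was 0.70 (limma, SE 0.04, adjusted p = 1.94e-07). The gap between the treatments in *U2AF1L4* was far wider than the spread within either.

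**Figure D4:**
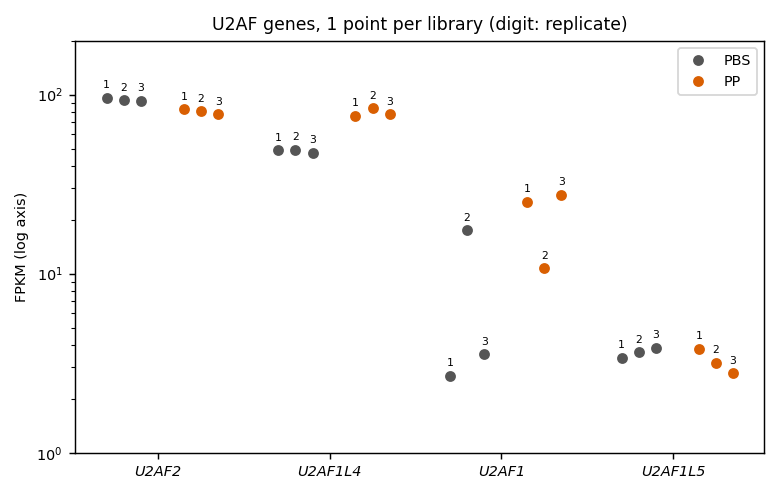
FPKM of the 4 U2AF genes in each library (y axis, log scale; digits give the replicate). The treatments are apart in *U2AF2* and *U2AF1L4*, and in *U2AF1* PBS replicate 2 lies above PP replicate 2 while the other libraries are apart.

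*U2AF1*, the small subunit that reads the AG at the end of the intron, differed more between replicates than nearly any other gene. Its FPKM was 2.70, 17.5 and 3.54 with PBS and 25.2, 10.7 and 27.6 with PP, on 93 to 569 counts per PBS library and 360 to 1007 per PP library. PBS replicate 2 lay above PP replicate 2, so the treatments overlapped. The log2 fold change was 1.61 (limma, SE 0.53, adjusted p = 0.0193), and its residual spread ranked 3 of 11726 genes. Only 0.972% of tested genes were called higher with treatments that overlapped. The call was lost without a filter (adjusted p = 0.0886) and without PBS replicate 1 (log2 fold change 1.17, 0.0738), PBS replicate 3 (1.32, 0.0635), PP replicate 1 (1.44, 0.0553) or PP replicate 3 (1.37, 0.074).

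In GRCh38, the genome named in the labels, *U2AF1* (chromosome 21, 43092956 to 43107578) has a near-identical second copy on the same chromosome, at 6484623 to 6499248, which RefSeq lists as LOC102724594 with the synonym *U2AF1L5*. The table lists *U2AF1L5* at 3.38, 3.63 and 3.85 FPKM with PBS and 3.805, 3.18 and 2.78 with PP, a log2 fold change of -0.12 (adjusted p = 0.222 from limma), which passed the test without PP replicate 1 (0.0317). The RefSeq promoters of the copies are identical at 299 of 300 bases. A stretch of 60 bases from 35 before to 25 after the start, at chr21:43107546-43107605 and chr21:6499224-6499283 on the minus strand, shows the differing base in capitals.
U2AF1: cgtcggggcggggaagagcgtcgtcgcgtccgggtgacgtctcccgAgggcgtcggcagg
LOC102724594: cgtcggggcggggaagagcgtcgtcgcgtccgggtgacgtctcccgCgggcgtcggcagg

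The neighbouring gene *CBS*, with its copy *CBSL* in the same pair of regions, was uneven too. *CBS* had an FPKM of 0.672, 1.26 and 1.33 with PBS and 8.73, 9.45 and 2.20 with PP, and *CBSL* one of 0.0409 to 0.550 and of 0.144 to 2.10. Of the PP libraries, replicate 2 was the lowest for *U2AF1* and the highest for *CBS*, and replicate 3 the reverse. How reads that match both copies were counted is not given in the sources used here, and their part in the spread of *U2AF1* was not tested. The values of *U2AF1* and *U2AF1L5* are therefore uncertain.

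Genes of the splicing pathway outside these families were counted in 10 lists. Counting each gene once, 62 of 126 tested genes were called higher and 29 lower, with a median log2 fold change of 0.11, against 38.1% higher and 34.4% lower over all tested genes. The 56 members above had a median of -0.08. The lists were written with earlier results of these data known, and no test compares them with the members.

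**Figure D5:**
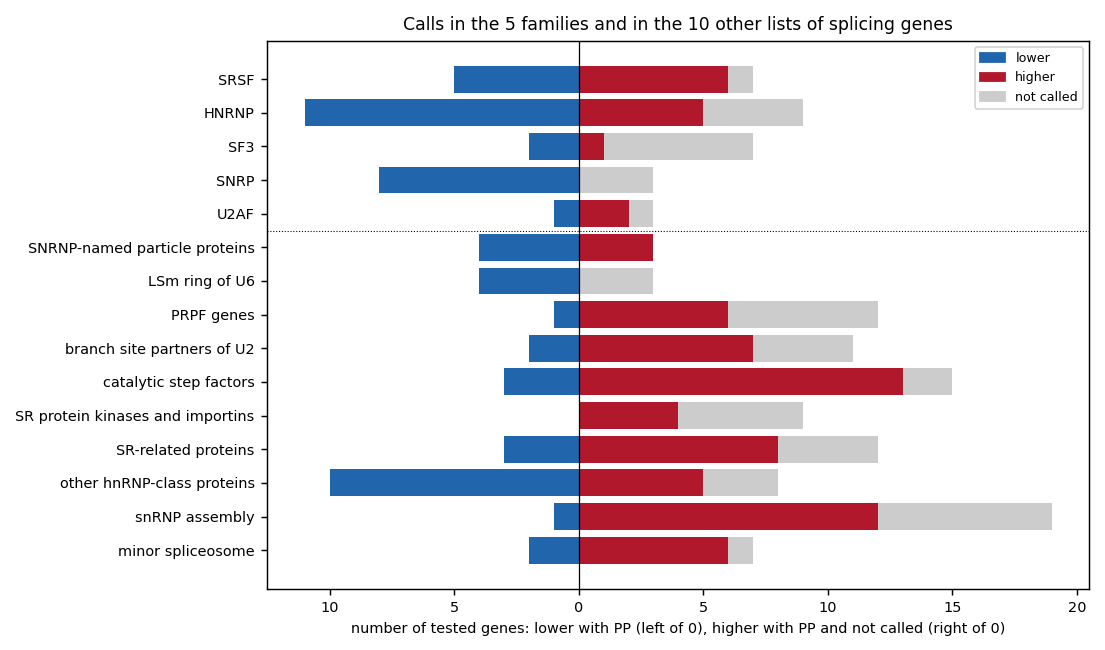
Number of tested genes (x axis) called lower with PP (left of 0), called higher, and not called (right of 0) in the 5 families, above the dotted line, and in the 10 other lists of splicing genes, below it. The SNRP family and the LSm ring have no gene called higher, and the catalytic step and snRNP assembly lists have 13 and 12.

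The ring of the U6 snRNA is made of LSm proteins that resemble Sm proteins. Of its 7 genes, 4 were called lower, 0 higher and 3 were not called, with a median of -0.49. Over all tested genes, 34.4% were called lower and 38.1% higher. *LSM3* was at 20.7 ± 1.40 FPKM with PBS against 12.3 ± 1.23 with PP (SD, n = 3 each), and *LSM4* at 127 ± 6.46 against 82.6 ± 5.33 (SD, n = 3 each). Their log2 fold changes were -0.70 and -0.62, while *LSM6* (0.08) and *LSM8* (0.01) did not pass the test. Of the genes for particle proteins with SNRNP names, 3 of 7 were called higher and 4 lower. *SNRNP70*, the third U1-specific protein, was lower (-0.33), as was *SNRNP25* of the minor spliceosome (-0.59), and *SNRNP27* (0.31) and *SNRNP35* (0.28) were higher.

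In the list of snRNP assembly genes and their partners, 12 of 20 were called higher and 1 lower, where 38.1% and 34.4% of all tested genes were, and the median log2 fold change was 0.16. *TGS1*, which caps the small nuclear RNAs with a trimethylguanosine, was at 23.0 ± 0.530 FPKM with PBS against 37.6 ± 0.796 with PP (SD, n = 3 each), a log2 fold change of 0.69, and *GEMIN2*, which holds the Sm proteins during loading, had one of 0.46. The 1 lower gene was *COPRS* (-0.12), a partner of the arginine methyltransferase PRMT5 known from histones rather than from snRNP assembly. *CLNS1A* (-0.06) was not called. *SMN1* and *SMN2*, near-identical copies whose split of reads is uncertain, were not called.

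Factors of the catalytic steps had 13 of 18 genes called higher and 3 lower, with a median of 0.25. The shares of all tested genes were 38.1% higher and 34.4% lower. *BUD31* was at 19.9 ± 0.699 FPKM with PBS against 30.9 ± 1.42 with PP (SD, n = 3 each), a log2 fold change of 0.61, and *BCAS2* was at 0.45. In the other direction were the helicase gene *DDX23* (-0.52) and *EFTUD2*, the GTPase of U5 snRNP (-0.37). The PRPF genes had 6 of 13 higher and 1 lower, from *PRPF31* (-0.44) to *PRPF38B* (0.35) and *PRPF39* (0.42), and *PRPF4* (-0.08) was not called. Partners of U2 at the branch site had 7 of 13 higher and 2 lower, led by *RBM10* (0.42) and *SF1*, the first protein on the branch site (0.37), with *PUF60* (-0.28) and *DDX46* (-0.27) at the other end.

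Of the genes for kinases that phosphorylate SR proteins and for the importins *TNPO1* and *TNPO3*, 4 of 9 tested were called higher and 0 lower. Over all tested genes, 38.1% were called higher and 34.4% lower. *CLK1* had an FPKM of 44.1, 43.5 and 42.2 with PBS and 66.3, 65.6 and 63.9 with PP, a log2 fold change of 0.58 (limma, SE 0.04, adjusted p = 1.94e-07), and *CLK4* one of 0.54. *SRPK2* (-0.08) and *CLK2* (-0.05) did not pass the test, and *SRPK3* was below the filter. *TNPO3*, the importin of SR proteins, was not called (0.04), while *TNPO1*, an importin of other proteins, was called higher (0.48). Genes of SR-related proteins had 8 of 15 higher and 3 lower, from *ACIN1* (-0.21) and *SON* (-0.16) to *TRA2A* (0.38) and *SRRM1* (0.45). Genes of other hnRNP-class proteins resembled the HNRNP genes in their counts, with 5 of 18 higher and 10 lower and a median of -0.10. *TARDBP* (-0.38) was among the lower and *SYNCRIP* (0.32) and *PCBP1* (0.35) among the higher. The minor spliceosome list, which shares 3 genes with the SNRNP list, had 6 of 9 tested genes higher and 2 lower, with *ZRSR2*, the minor spliceosome's relative of *U2AF1*, at 0.55, *ZMAT5* at 0.46, *RNPC3* at -0.21 and *SNRNP25* at -0.59.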

How the data were processed

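Reads from 6 NCI-H660 libraries (3 PBS, 3 PP, day 3) were not analysed here. The authors deposited 1 table of FPKM values for 17177 gene symbols, with no repeated symbol, 268 genes at 0 throughout and every value column matched to a label. The labels name fastp, HISAT2, HTSeq and GRCh38, while the study's methods name hg19, Bowtie, RSEM, Cufflinks and HTSeq. The table lists *U2AF1L5*, *CBSL* and *SMIM11B*, absent from the hg19 annotation used here, so GRCh38 coordinates are given. The methods also state duplicates, where the labels give 3 libraries and the study's figure legends 3 independent samples. Stranded libraries were made, and whether counting used strand, and how reads with several matches were counted, is not given in the sources used here.

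FPKM steps gave whole counts, within 0.01 of a count, for 16401 genes (95.5%). The chi-square of these counts per degree of freedom was 3.28 to 6.65 between libraries of a treatment and 137 to 156 between treatments.

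limma 3.58.1 (lmFit, eBayes with an intensity trend, R 4.3.3) was fitted to log2(FPKM + 1), which understates changes of low genes, over the 11726 genes whose mean FPKM across the 6 libraries reached 1, with Benjamini-Hochberg adjustment over all of them. The code was tested on simulated data. Alternatives were a pseudocount of 0.1, no filter, a mean FPKM of at least 5, median-ratio scaling, limma-voom on recovered counts, the replicate number as a block, and each library left out in turn. Counts by family are descriptive. Members, lists and tests were chosen with earlier results of these data known. Genes to name were set by a rule: all SRSF, SF3 and U2AF genes, the 5 at each end and the highest in HNRNP and SNRP, members below the filter, and the 2 genes at each end of each list. The remaining members, CBS, CBSL, SNURF, RPL36A, SMN1, SMN2, TNPO1 and TNPO3 were named after their values were seen. Some genes and sequences that the rule would name are not reported here. Promoters and coordinates came from RefSeq (GRCh38.p14), and coding sequences and exon overlaps from GENCODE on GRCh37. Coding sequences were aligned between 5 pairs of genes. Python 3.11.15, numpy 2.4.6, pandas 2.3.3 and matplotlib 3.10.9 were used.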

Additional observations from a re-analysis of the deposited data

How the results depend on the processing

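No called member changed sign in any alternative, and of those not called *SF3B1* and *SNRPA* did, within 0.05 of 0. With limma-voom on counts 2 SF3 genes were called higher, in place of 1. With no filter on low values 1 SNRP gene (*SNRPN*) and 1 U2AF gene were called higher and 1 SF3 gene lower. The median log2 fold change of SRSF was 0.0436 with a mean FPKM of at least 5 and 0.0614 with median-ratio scaling, and that of U2AF was 0.70 with a mean FPKM of at least 5, which leaves only 3 of its genes. With each library left out in turn, 1 to 2 SF3 genes were called higher, 1 to 2 U2AF genes higher, 1 to 2 SF3 genes lower and 1 to 2 U2AF genes lower. The median of SRSF ran from 0.0642 to 0.0901 and that of SNRP from -0.33 to -0.26. The deviations of same-numbered libraries correlated at -0.21, -0.01 and -0.13, which gave no sign of pairing by replicate number. With so few libraries, these values cannot show that pairing was absent. In a fit blocked by replicate number 55 of 56 member calls were as before. The exception was *SRSF10* (adjusted p = 0.0695). Calls were lost under at least 1 alternative in *SRSF10*, *SRSF12*, *SF3B5* and *U2AF1* and gained in *HNRNPF* (adjusted p = 0.0338 without PP replicate 3), *SF3A2*, *SF3B4* and *U2AF1L5*. The cause was not tested. The median of all genes moved by under 0.1 with every scaling. Depth limits *HNRNPH2*, *SNRPN* and *U2AF1L5*, with at most 113 counts in any library.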
